A study of Mus musculus with 4 samples.

Results

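Tmem125, Btbd16 and Thsd4 are 3 genes about which comparatively little is known in the oligodendrocyte, and their messenger RNA was among the most reduced in oligodendrocytes with a deletion of Zdhhc5. They were found by name in the deposited table and make up 3 of its 6940 genes. Tmem125 encodes a protein predicted to span the membrane several times, and its function is not established. Btbd16 encodes a protein with a BTB (POZ) domain, a fold through which proteins pair with each other and, in several families, bring substrates to cullin ubiquitin ligases. Thsd4 encodes a secreted protein with thrombospondin type 1 repeats that belongs to the ADAMTS-like group. It binds fibrillin and promotes the assembly of fibrillin microfibrils in the extracellular matrix. The genes were chosen by their steep falls in normalised reads between control and cKO cells in these same libraries, so their values are given as a description and without a test.

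The cells were oligodendrocytes from the cortex of C57BL/6 mice at postnatal day 5, purified on dishes coated with antibodies to GalC and O4, grown for 6 days and then given 40 ng/mL of triiodothyronine, the hormone that starts differentiation, for 24 h. The control cells had the genotype Zdhhc5fl/fl, so both copies of Zdhhc5 carried sites that Cre recombinase can cut between, and they had no Cre. The cKO cells (conditional knockout) had the genotype Olig1cre/+;Zdhhc5fl/fl and carried Cre in 1 copy of the Olig1 locus, which is active in the oligodendrocyte lineage. Zdhhc5 encodes an enzyme that links palmitate to proteins. Each genotype had 2 libraries, and the labels do not say whether these came from separate cultures or animals. Cre and the altered copy of Olig1 were present only in cKO cells, so their presence and the deletion cannot be told apart.

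Values are normalised reads, the number of reads of a gene scaled by a size factor of its library, and a mean is given as mean ± SD with n = 2. The listed genes held 13672254 to 20068016 reads per library. The table lists genes that the authors had called, so every count below is a count among called genes. In the controls the 10 listed astrocyte markers summed to 508845 and 509611 normalised reads and the 19 listed myelin markers to 338220 and 339126, so RNA of other cell types was in the cultures. In the cKO libraries the astrocyte sums were 768318 and 761384. Gfap alone made up 351481 and 352111 of the control sums and 557247 and 553584 of the cKO sums. Fewer cells of a type and less RNA per cell cannot be told apart in such libraries. Zdhhc5 itself was not analysed here, and the genotype labels were not checked by its level.

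The 3 genes lie on different chromosomes and differ widely in size. Tmem125 (ENSMUSG00000050854) occupies chr4:118540941-118544044 on the minus strand of GRCm38, a span of 3.10 kb of which 75.4% is exon. GENCODE M21 gives it 4 coding transcripts of 2 to 4 exons. Btbd16 (ENSMUSG00000040298) occupies chr7:130774069-130825899 on the plus strand, a span of 51.8 kb of which 7.18% is exon, with 2 coding transcripts of 16 exons each. The annotated body of Fgfr2 runs over Btbd16 on the opposite strand, but none of the annotated Fgfr2 exons falls within it. Thsd4 (ENSMUSG00000032289) occupies chr9:59966931-60522046 on the minus strand, a span of 555 kb of which 2.52% is exon. Its 4 coding transcripts have between 4 and 18 exons and start at 4 different positions. A further 4 annotated genes lie inside the Thsd4 span and share 0 exon bases with it. The counting covered whole genes, so the share of each Thsd4 start cannot be read from these values.

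The regions before the starts of the 3 genes are shown because all 3 genes were many-fold lower in the same cells. Each line gives the 250 bases before a RefSeq start on GRCm38.p6, in the direction of the gene, with capitals marking the letters of the motifs searched. The windows are chr4:118543727-118543976 (minus strand) for Tmem125, chr7:130773819-130774068 (plus strand) for Btbd16, and chr9:60511036-60511285 and chr9:60141221-60141470 (minus strand) for the upstream and downstream starts of Thsd4.
Tmem125: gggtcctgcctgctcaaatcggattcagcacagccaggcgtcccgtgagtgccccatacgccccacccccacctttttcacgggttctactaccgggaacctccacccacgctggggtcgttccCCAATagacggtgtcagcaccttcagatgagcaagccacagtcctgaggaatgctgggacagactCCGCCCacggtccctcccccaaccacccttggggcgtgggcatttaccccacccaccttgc
Btbd16: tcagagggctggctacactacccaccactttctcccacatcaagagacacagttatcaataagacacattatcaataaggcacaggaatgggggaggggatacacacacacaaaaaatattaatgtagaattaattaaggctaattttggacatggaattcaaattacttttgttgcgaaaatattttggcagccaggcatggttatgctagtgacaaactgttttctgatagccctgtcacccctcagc
Thsd4 upstream start: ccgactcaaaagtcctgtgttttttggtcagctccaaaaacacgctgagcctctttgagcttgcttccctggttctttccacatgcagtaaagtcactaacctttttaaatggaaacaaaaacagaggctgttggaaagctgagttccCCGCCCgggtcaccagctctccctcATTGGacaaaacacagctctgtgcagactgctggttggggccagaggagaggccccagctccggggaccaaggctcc
Thsd4 downstream start: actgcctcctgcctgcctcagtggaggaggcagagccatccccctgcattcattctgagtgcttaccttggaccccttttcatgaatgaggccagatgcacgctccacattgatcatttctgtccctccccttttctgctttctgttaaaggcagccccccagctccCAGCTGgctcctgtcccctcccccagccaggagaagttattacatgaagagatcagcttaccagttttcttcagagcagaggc

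The Thsd4 starts lie 11.0 kb and 381 kb downstream of the gene's start in GENCODE. RefSeq gives 5 windows for the 3 genes, the fifth being a second Btbd16 start that lies 70 bases after the first. Base composition differed, G and C making up 62.8% of the Tmem125 window, 40.8% of the Btbd16 window, and 52.8% and 54.4% of the Thsd4 windows, where the median of all 32851 windows was 52.4%. Motifs were searched on both strands, and none holds another. The CCAAT box (CCAAT, in 33.8% of all windows) and the GC box (GGGCGG, in 32.7%) were each found once in the window of Tmem125 and once in the upstream window of Thsd4. CAGCTG, an E-box form bound by Olig factors and present in 13.0% of windows, was found once, in the downstream window of Thsd4. The Sox core ACAAT (27.7% of windows), the Myrf cores CTGGCAC (4.19%) and CTGGTAC (1.83%), the thyroid hormone receptor half-site AGGTCA (14.0%) and the TATA box TATAAA (12.4%) were in none of the 5 windows. The Btbd16 windows held none of the 8 motifs. Among the 6942 windows of listed genes the GC box was more common, at 58.8%, and the CCAAT box was in 34.8%. CAGCTG was in 12.1% of these, the Sox core in 18.1%, and the Myrf cores in 4.41% and 1.56%. AGGTCA was in 10.4% and TATAAA in 6.19%. A missing match says only that these letters are not in these bases.

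Tmem125 had the steepest fall of the 3. Its normalised reads were 215 and 206.7 in control 1 and control 2, and 8.16 and 19.0 in cKO 1 and cKO 2. Both cKO libraries lay far below both controls, the lower control being 10.9 times the higher cKO value. The means were 210.8 ± 5.88 and 13.6 ± 7.65, a 15.5-fold fall that left 6.44% of the control level (log2 fold change -3.97, on the scale of log2(value + 1)). The cKO libraries themselves stood 2.33-fold apart. They rested on 10 and 16 reads, against 215 and 203 reads in the controls, and their 95% exact Poisson intervals, which cover counting error only, were 3.92 to 15.0 and 10.9 to 30.8 normalised reads and overlapped. Taken alone, cKO 1 was 25.8-fold and cKO 2 was 11.1-fold below the control mean, so the size of the Tmem125 fall is known only roughly while its direction was the same in both.

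Btbd16 was the least abundant of the 3 genes in control cells. Its normalised reads were 139 and 145.6 in control cells and 13.1 and 21.4 in cKO 1 and cKO 2. The groups did not overlap, and the lower control was 6.51 times the higher cKO value. Means of 142.3 ± 4.66 and 17.2 ± 5.87 correspond to an 8.27-fold fall (log2 fold change -3.01), with 12.1% of the control level left. The cKO values came from 16 and 18 reads, and their counting intervals of 7.47 to 21.2 and 12.7 to 33.8 normalised reads overlapped. As in Tmem125, cKO 1 was the lower library.

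Thsd4 had the most reads, and its cKO libraries agreed most closely. Its normalised reads were 1157 and 1235 in control cells and 130.6 and 115.1 in cKO 1 and cKO 2. Here cKO 2 was the lower of the cKO libraries, by 1.14-fold. The means were 1196 ± 55.1 and 122.9 ± 11.0, a 9.73-fold fall (log2 fold change -3.27) that left 10.3% of the control level. The cKO values rested on 160 and 97 reads. The folds of the single libraries ran only from 9.15 to 10.4.

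**Figure D1:**
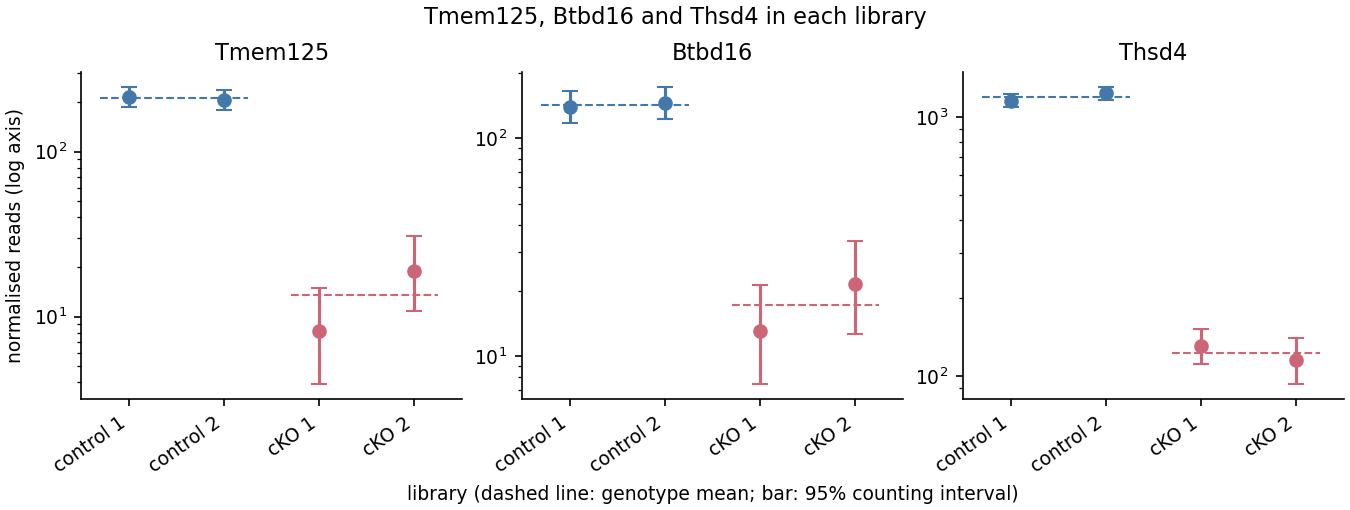
Normalised reads (log axis) of Tmem125, Btbd16 and Thsd4 in the 2 control and 2 cKO libraries, where points are libraries, bars are 95% counting intervals and dashed lines are genotype means. The cKO points lie below both controls in each panel, and the 8.16 and 19.0 of Tmem125 are spread most widely.

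Per kilobase of gene length, which allows levels of different genes to be set side by side, Tmem125 and Thsd4 were close in control cells. That length counts all annotated exons of a gene. A level per kb thus depends on which transcripts were expressed, which cannot be read from these values. Tmem125 had 91.9 and 88.4 normalised reads per kb in the controls and Thsd4 had 82.7 and 88.3, so these neighbours in the order do not differ beyond their spread. Btbd16 was lower, with 37.3 and 39.1. In the cKO libraries Thsd4 had 9.34 and 8.23 normalised reads per kb, Tmem125 had 3.49 and 8.12, and Btbd16 had 3.51 and 5.74. In cKO 2 Thsd4 was only 1.01 times Tmem125, which is within counting error, and the values of Tmem125 and Btbd16 overlapped. All 3 were modest transcripts among listed genes: 27.5% of these had a control level per kb at or below that of Tmem125, 26.4% at or below that of Thsd4 and 12.7% at or below that of Btbd16.

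Among all 6940 listed genes, limma (adjusted p under 0.05) called 3696 lower (53.3%) and 3244 higher (46.7%), and both cKO values lay below both control values in 53.3%. Together these calls cover every listed gene, since the genes were selected by a call in the same libraries. A limma call here thus gives a direction rather than a fresh test. A fall of at least 8-fold in the ratio of means was reached by 47 genes, or 0.677%, and the 3 genes are among them, which is what they were picked for. In the order of log2 fold changes Tmem125 was at rank 6, Thsd4 at rank 18 and Btbd16 at rank 29. Just ahead of Tmem125 stood Mobp, a myelin protein gene at log2 fold change -4.09, and Gm5535 at -4.01. Sytl5, a synaptotagmin-like gene, and Gm37111 followed it at -3.80 and -3.77. Thsd4 stood between Tmprss3 (-3.34) and Ptprb (-3.28) on the steeper side and 9630013A20Rik (-3.19) and B230206H07Rik (-3.16) on the other. Btbd16 had Ccdc192 (-3.04) and Gm14296 (-3.01) ahead of it and Bcas1os2 (-3.01) and 6030400A10Rik (-2.99) behind it. The ranks depended on the pseudocount, since many neighbours had few reads. By the ratio of means, the ranks were 17 for Tmem125, 33 for Thsd4 and 45 for Btbd16.

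**Figure D2:**
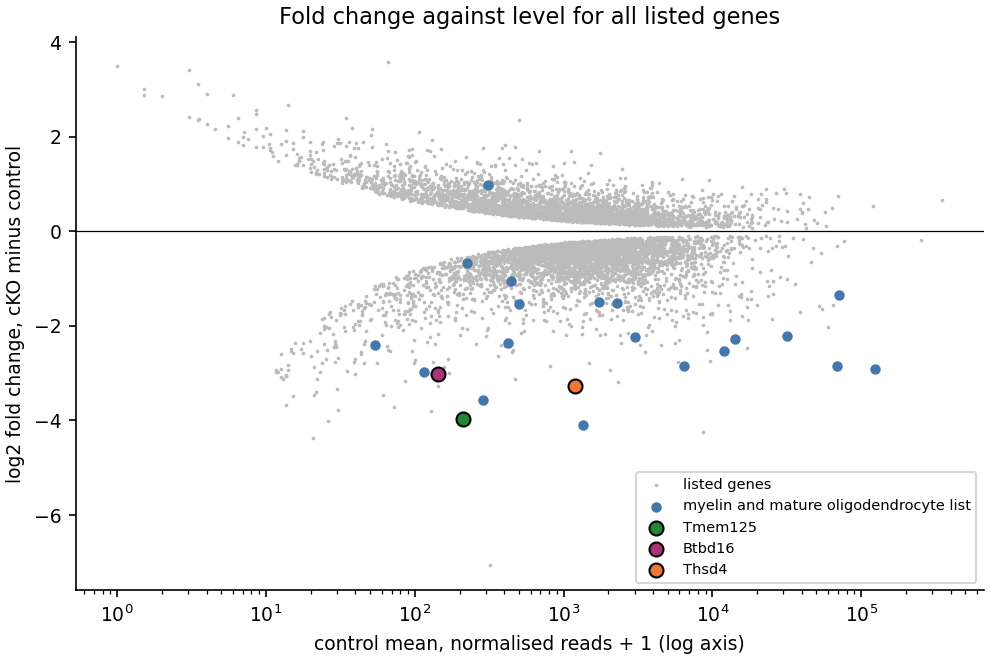
Log2 fold change (cKO minus control) against the control mean (normalised reads + 1, log axis) for all 6940 listed genes, with the 19 listed genes of the myelin list in blue and the 3 genes outlined. The gap around 0 reflects that only called genes are listed, and the 3 genes lie in the lower part of the cloud at control means of 142.3, 210.8 and 1196.

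Genes of the oligodendrocyte stages give a scale for these falls. Of the 25 genes on the list of myelin and mature oligodendrocyte genes, 19 were listed. In limma 18 of these were lower and 1 higher, where 53.3% of all listed genes were lower. The log2 fold changes of the 19 had a median of -2.27, where that of all listed genes was -0.22. Aspa, Ermn, Klk6, Mal, Ppp1r14a and Trf were not analysed here. Among the abundant members Mbp, Cnp and Cldn11, genes of myelin proteins, fell 7.57-fold, 2.52-fold and 4.65-fold. The exception was Ndrg1, a stress-responsive gene that also marks mature oligodendrocytes, which rose from 323 and 301 to 613 and 618 (log2 fold change 0.98, limma adjusted p 9.73e-10). Of the 19, 1 had a steeper fall than Tmem125, namely Mobp, and 2 had steeper falls than Thsd4 and Btbd16, Mobp among them. In level the 3 genes sat low in this company: 5 of the 19 had a lower control level per kb than Tmem125 (Gjb1, Hapln2, Gpr37, Plekhh1 and Ndrg1), the same 5 than Thsd4, and Hapln2 and Plekhh1 alone than Btbd16.

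Among genes of newly formed oligodendrocytes, 19 of 20 were listed and all 19 were lower in limma (median -1.56 on the log2 scale). Of all listed genes 53.3% were lower and 46.7% higher. None of the 19 fell as steeply as any of the 3 genes, or had as low a control level per kb. Sirt2, a deacetylase enriched in the lineage, fell 2.95-fold, and Nfasc, the adhesion protein neurofascin, fell 4.08-fold. Bcas1 fell 2.97-fold and Fyn, a kinase that acts downstream of axonal contact, fell 2.24-fold. Of 14 lineage transcription factors 13 were listed, 12 lower and 1 higher. The lists overlap: Myrf, Tcf7l2 and Nkx2-2 are also on the newly formed list and Nkx6-2 on the myelin list. Their counts are therefore not separate results. Sox10 fell 2.69-fold, Myrf 3.44-fold, Olig1 1.75-fold and Olig2 1.43-fold. The cKO cells carried Cre in 1 copy of the Olig1 locus, and the part of this in the fall of Olig1 was not tested. Precursor genes had 12 of 16 members listed, 9 lower and 3 higher, with a median of -0.72. Of these Ptprz1, Serpine2 and Cspg5 rose, with log2 fold changes of 0.14, 0.42 and 0.69, and Gpr17, a receptor of cells about to differentiate, fell 2.57-fold.

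The genes whose values over the 4 libraries were most like those of each member were found by the distance between profiles of log2((value + 1) / (control mean + 1)), over 4 libraries that all genes share. For Tmem125 the nearest was Tppp, which encodes a tubulin polymerisation promoting protein, at a distance of 0.71. Its values were 8713 and 8605 in control cells, with 414.0 and 505.5 in cKO cells, an 18.8-fold fall. Mobp followed at 0.81, at 1363 and 1337 in control cells against 78.4 and 78.3. The rest were Gm10564 (20 and 19.3 in control cells, listed at 0 in both cKO libraries), Gm37460 and Ptprb, a receptor tyrosine phosphatase, at 0.98, 1.02 and 1.03. The nearest genes of Btbd16 and Thsd4 were closer, at 0.33 and 0.18.

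Btbd16 was nearest to S1pr5, the oligodendrocyte receptor for sphingosine phosphate, at a distance of 0.33. Control libraries held 165 and 148.6 normalised reads of S1pr5 and cKO libraries 18.0 and 23.7, a 7.52-fold fall at a level close to that of Btbd16. Gm38114, Bcas1os2, Gm42692 and Ptprb followed at 0.35, 0.36, 0.37 and 0.40. Bcas1os2 is an antisense transcript of the Bcas1 locus and fell 8.37-fold, from 168.0 ± 7.14 to 20.1 ± 1.82. Whether its reads can be told from those of Bcas1 depends on the strand setting, which is not given in the sources used here.

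Thsd4 was nearest to 9630013A20Rik, an antisense transcript in the table's annotation, at a distance of 0.18. Its 2357 and 2299 normalised reads in control cells stood against 258.8 and 250.4 in cKO cells, a 9.14-fold fall. Kcnj12, an inward rectifier potassium channel, came next at 0.24, at 443 and 500.9 against 58.8 and 48.7. Tmprss3, Bcas1os2 and Slc24a2, a sodium, calcium and potassium exchanger that fell 7.71-fold, were at 0.40, 0.47 and 0.50. None of the 3 members was among the 5 nearest genes of another, although Thsd4 was at rank 3 for Tmem125 with a pseudocount of 5 and at rank 4 among genes with a control mean of at least 100. Btbd16 and Thsd4 were 0.71 apart, and Tmem125 was 1.39 from Btbd16 and 1.35 from Thsd4. With a pseudocount of 5, 3 of the 5 nearest genes were shared for each member. The nearest was then Mobp for Tmem125 and Ddc for Btbd16, and 9630013A20Rik was again the nearest to Thsd4.

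**Figure D3:**
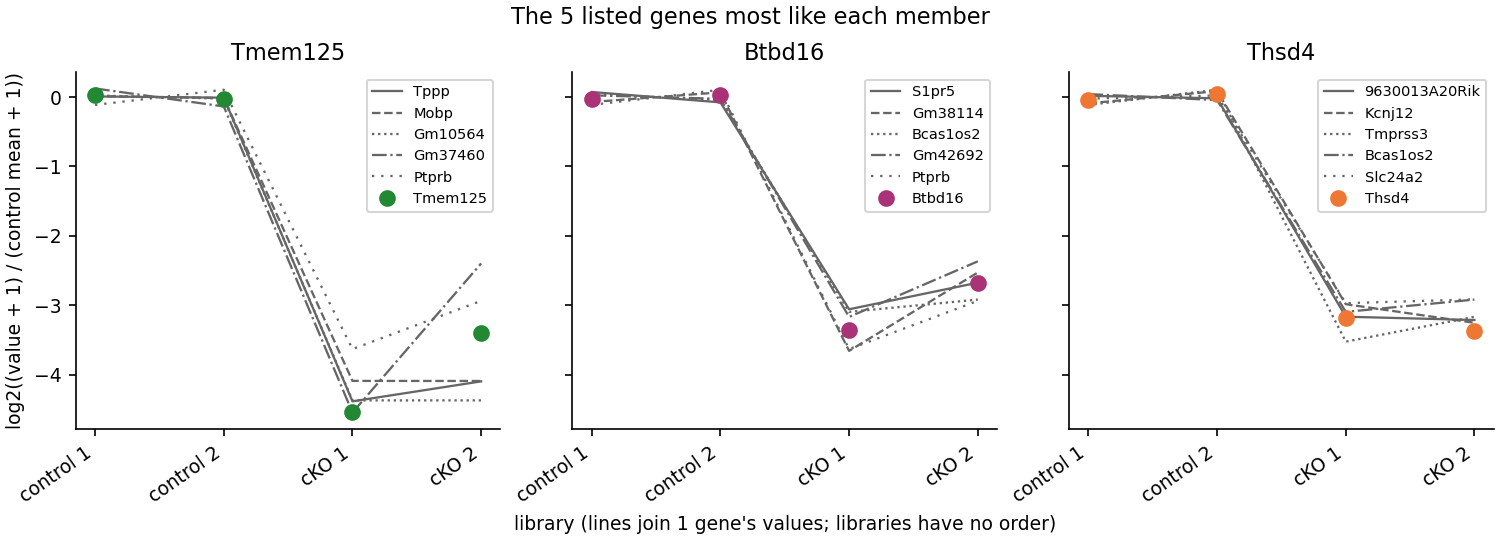
Profiles over the 4 libraries, as log2((value + 1) / (control mean + 1)), of each member (coloured points) and its 5 nearest listed genes (lines, which only join the values of 1 gene). The lines of Thsd4 run close to its points, at distances of 0.18 to 0.50, and those of Tmem125 spread in cKO 2, at distances of 0.71 to 1.03.

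Genes beside the members on the chromosome did not in general share their falls. Within 500 kb of the 3 genes GENCODE annotates 49 coding genes, of which 14 were listed, and with the antisense gene Gm5602 this made 15 listed neighbours, 8 lower and 7 higher in limma (53.3% and 46.7% of all listed genes). Their median log2 fold change was -0.29, close to the -0.22 of all listed genes. A fall of at least 4-fold, reached by 2.22% of all listed genes, was seen in 1 of the 15.

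That neighbour was Plekha1, which encodes a pleckstrin homology protein that binds phosphoinositides and lies 39.9 kb downstream of Btbd16 on the same strand. Control libraries had 9639 and 9671 normalised reads of Plekha1 and cKO libraries 1399 and 1493, so the groups were far apart. Its fall was 6.68-fold (-2.74 ± 0.04 SE on the log2 scale, limma adjusted p 1.84e-24). The next gene on that side, Htra1, a secreted serine protease 110.2 kb from Btbd16, went the other way, from 3432 ± 80.0 to 5664 ± 122, and rose 1.65-fold. Gm5602, which is annotated antisense and overlaps the start of Plekha1, fell from 74.1 ± 5.48 to 37.7 ± 3.70, but its reads may not be separable from those of Plekha1 and its call was lost with DESeq2. On the other side of Btbd16, Ate1, an arginyltransferase, fell 1.38-fold and Nsmce4a, a subunit of the SMC5/6 complex, rose 1.20-fold. The call of Ate1 was lost with the trends with GC content and gene length removed.

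Around Tmem125 only 4 of 26 annotated coding genes were listed. Elovl1, a fatty acid elongase 108.0 kb away, fell 1.27-fold (a call lost with DESeq2), and Kdm4a, a histone demethylase, fell 1.28-fold. Ptprf, a receptor phosphatase, rose 1.28-fold. Tie1, a receptor kinase of endothelial cells and the closest of the 4 at 50.9 kb, rose from 6 and 5.09 to 20.4 and 26.1 normalised reads (log2 fold change 1.88, limma adjusted p 0.0026). None of the 4 fell by 2-fold, but 4 genes are too few to set beside the 11.8% of all listed genes that did.

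Around Thsd4 6 of 13 annotated coding genes were listed, 3 lower and 3 higher. Myo9a, an unconventional myosin that lies 38.1 kb away, fell 2.00-fold, from 1072 ± 5.65 to 535.8 ± 71.4. Senp8, a protease for the ubiquitin-like protein NEDD8, fell 1.78-fold, and Arih1, a ubiquitin ligase, fell 1.22-fold. Pkm, the glycolytic pyruvate kinase, rose 1.28-fold, Uaca rose 1.30-fold and Hexa, a lysosomal hexosaminidase, rose 1.35-fold. With the trends with GC content and gene length removed, the direction of Arih1 and Hexa turned and the calls of Senp8 and Pkm were lost.

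**Figure D4:**
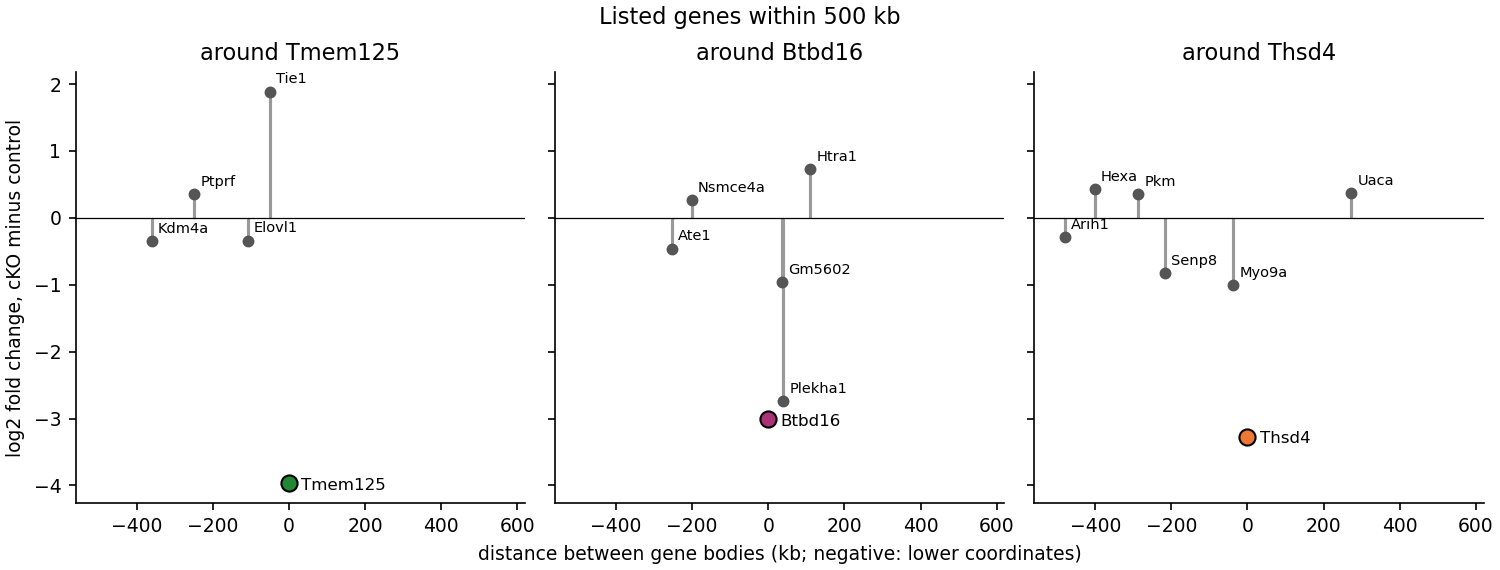
Log2 fold change (cKO minus control) of the listed genes within 500 kb of each member, against the distance between gene bodies in kb, negative towards lower coordinates. Plekha1, 39.9 kb from Btbd16, is the one neighbour with a log2 fold change near that of a member (-2.74 beside -3.01), and the other 14 lie between -1.01 and 1.88.

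The relatives of the 3 genes are given as a description, since the 3 were chosen for their falls and any relative would be likely to lie above them. Besides Tmem125, the table lists 78 genes named Tmem followed by a number, a naming class for membrane proteins of unrelated function rather than a true family. In limma 37 of these were lower and 41 higher, 2 fell at least 4-fold, and the median was 0.17 on the log2 scale. These counts are near the shares over all listed genes, of which 53.3% were lower, 46.7% higher and 2.22% at least 4-fold lower. The lowest were Tmem163, a zinc transporter, from 6013 and 5897 to 1114 and 1329 (4.88-fold lower), Tmem151a (4.05-fold lower) and Tmem88b (3.44-fold lower, from 6389 ± 184 to 1858 ± 75.2). At the other end Tmem59l rose 2.46-fold and Tmem204 3.27-fold. Tmem254c had 36 and 23.4 in control cells and 60.4 and 217 in cKO cells, so its 4.67-fold rise rests largely on cKO 2. With the trends with GC content and gene length removed, 27 of the 78 were called lower and 24 higher. Of all listed genes, 4221 kept their call and direction with these trends removed. The shares of all listed genes called lower and higher there are not given, so the 27 and 24 cannot be set beside them.

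The table lists 4 of the 12 other genes named Btbd, and limma called 3 lower and 1 higher (median -0.64 on the log2 scale), too few to set beside the 53.3% and 46.7% of all listed genes. Btbd3, which in neurons steers the orientation of dendrites, fell from 1383 and 1307 to 723.4 and 694.2 (-0.92 ± 0.06 SE on the log2 scale, limma adjusted p 7.59e-12). Btbd8 fell 1.88-fold, from 603.1 ± 32.6 to 321.3 ± 21.4. Btbd10 fell 1.29-fold and Btbd2 rose 1.14-fold, but both turned direction with the trends with GC content and gene length removed (log2 fold changes 0.56 and -0.20), and the call of Btbd2 was also lost without control 1.

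Most listed relatives of Thsd4 rose. Of 16 other genes with thrombospondin type 1 repeats or of the ADAMTS-like group 9 were listed, and limma called 8 higher and 1 lower (median 0.74 on the log2 scale), where 46.7% of all listed genes were higher. The ADAMTS-like genes Adamtsl1, Adamtsl3 and Adamtsl4 rose 1.38-fold, 1.34-fold and 1.73-fold. The thrombospondins, secreted proteins that also promote synapse formation, rose as well: Thbs2 went from 873 and 850.1 to 1883 and 1833 (1.11 ± 0.06 SE on the log2 scale, limma adjusted p 2.54e-14), and Thbs1 rose 1.67-fold. Spon1, which encodes F-spondin, rose 1.32-fold. Spon2 and the Wnt agonist Rspo1 rose from low means of 29.2 and 9.63 normalised reads to 67.2 and 32.1, and their calls were lost without cKO 1 (log2 fold changes 0.65 and 1.30), that of Rspo1 also without control 1 (1.05). Thsd7a was the 1 relative that fell, 1.65-fold, from 544.0 ± 22.6 to 329.1 ± 49.7. With the trends with GC content and gene length removed, 6 of the 9 were called higher and none lower. Among all listed genes 4221 kept their call and direction in that setting. The share of all listed genes called higher in it is not given, so the 6 of 9 cannot be set beside one.

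Most listed genes of the fibrillin microfibril, which the Thsd4 protein helps to assemble, also rose. The list has 17 genes, 12 of them in the table. In limma 10 were higher and 2 lower (median 0.61 on the log2 scale), where 46.7% of all listed genes were higher. Fbn1, which encodes fibrillin, the backbone of the microfibril, rose from 479 and 488.7 to 815.7 and 847.2 normalised reads (0.78 ± 0.07 SE on the log2 scale, limma adjusted p 2.84e-09), and both cKO libraries lay above both controls. Among the latent TGF-beta binding proteins, which dock onto fibrillin, Ltbp1 rose 1.56-fold, Ltbp3 1.70-fold and Ltbp4 1.27-fold. The microfibril component Mfap2 rose 1.53-fold, Eln, which encodes elastin, 1.51-fold, Emilin1 2.65-fold, and Lox, the enzyme that cross-links elastin and collagen, 2.79-fold. Fbln2 rose 1.26-fold and the protease gene Adamts10 rose 1.52-fold. Adamts6 fell 1.75-fold, a call lost with DESeq2, and Mfap1a fell 1.72-fold. Mfap1a is known as a spliceosome protein despite its name. With the trends with GC content and gene length removed, 6 of the 12 were called higher and 1 lower. Here too 4221 of all listed genes kept their call and direction, and the share of these called higher is not given. The 6 of 12 thus cannot be set beside a share of all listed genes.

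Most listed markers of other cell types moved in the same direction as most of these relatives of Thsd4. Of 10 pericyte and fibroblast markers 9 were listed, and all 9 were higher in limma, where 46.7% of all listed genes were higher. The summed level of the 9 was 3500 to 3695 normalised reads in control cells and 11152 to 11507 in cKO cells. Col3a1, Col1a2 and Col1a1, fibrillar collagens, rose 3.18-fold, 3.22-fold and 3.41-fold, and Pdgfrb, the receptor that marks pericytes, rose 2.31-fold. Astrocyte markers were listed for 10 of 11, 8 higher and 2 lower (Aqp4 and S100b). S100b fell 3.09-fold, from 2705 ± 40.8 to 875.5 ± 111. Gfap, Aldoc and Slc1a3 had log2 fold changes of 0.66, 0.63 and 0.41, and that of Aqp4 was -0.16, which turned to 0.032 with relative log expression factors or DESeq2 and to 0.35 with the trends with GC content and gene length removed. For neurons 9 of 10 markers were in the table, 8 higher and 1 lower (Dcx, which turned to 0.34 on the log2 scale with the same trends removed). For microglia 5 of 10 were, all 5 higher (C1qc turned to -0.0067 with those trends removed). For endothelial cells 3 of 9 were, with 2 higher and 1 lower. Cdh5 and Emcn rose 6.64-fold and 3.79-fold, from low control means of 13.1 and 11.6 normalised reads. Kdr fell 1.91-fold from a control mean of 180.4, and made up most of the endothelial sum in control cells given below. The microglia and endothelial counts are too small to set beside the 46.7% of all listed genes that were higher. The markers Rgs5, Slc1a2, Nefl, Aif1, C1qa, Csf1r, Cx3cr1, P2ry12, Cldn5, Egfl7, Esam, Flt1, Pecam1 and Tek were not analysed here. None of the listed markers was at 0 in the controls. The summed levels of the neuron, microglia and endothelial markers were 8048 to 8383, 2363 to 2422 and 187.3 to 223 normalised reads in control cells and 10205 to 10320, 3402 to 3531 and 221.9 to 229.4 in cKO cells. The part of these cells in the values of the 3 genes and of their relatives was not tested.

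**Figure D5:**
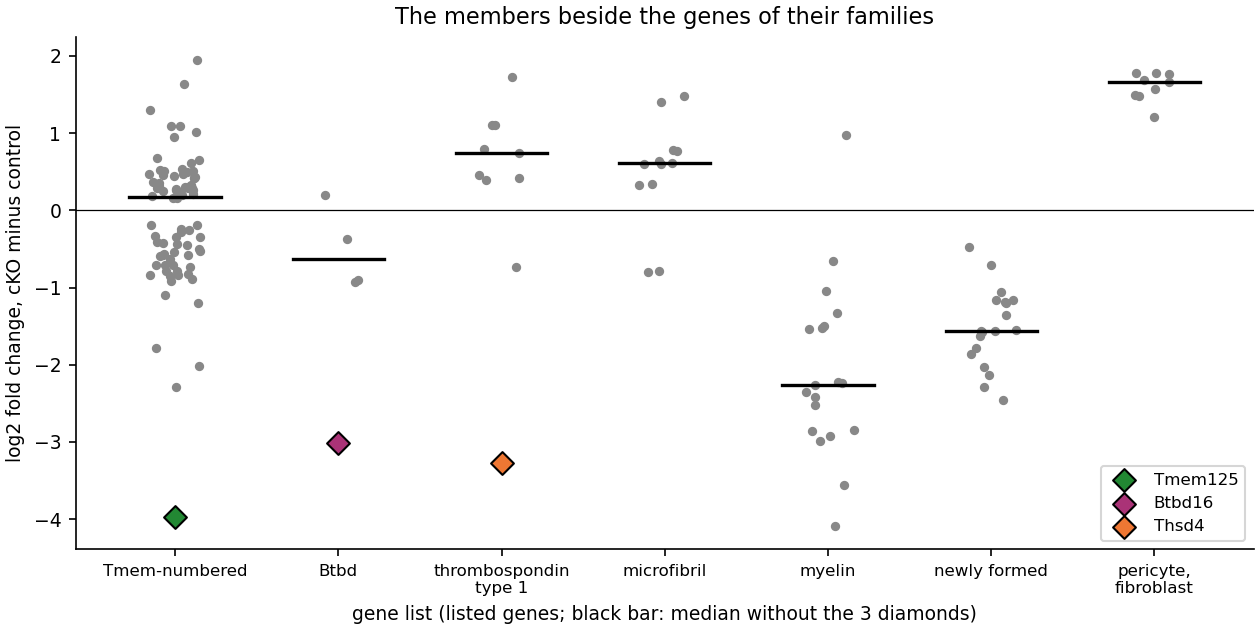
Log2 fold change (cKO minus control) of the listed genes of the lists drawn (grey points, black bar the median) with Tmem125, Btbd16 and Thsd4 as diamonds over the naming class or family each belongs to. The 3 genes were chosen by their falls, so their place in a column is a description, and the medians of the lists drawn run from -2.27 for myelin to 1.67 for pericytes and fibroblasts.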

How the data were processed

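RNA of 4 libraries, 2 per genotype, was sequenced. The deposited table gives, per the file headers, a normalised signal for every gene in every library, genotype means, the gene length, a log2 fold change, a p-value and an adjusted p-value. The submitters' processing notes name DESeq2 and the builds mm10 and GRCm38. The aligner, counting tool, strand setting and annotation release are not given in the sources used here. There were 0 columns of other samples.

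Dividing each library's values by its smallest step gave whole reads for all 6940 genes within 0.01 read. Few control values lie at the lowest multiples, so the step, and the read numbers that rest on it, are less firmly set in the controls. A read was worth 1.0, 1.0181, 0.8165 and 1.1866 in control 1, control 2, cKO 1 and cKO 2, and 17077509, 16773675, 20068016 and 13672254 reads were in listed genes, which is not the whole depth. All 6940 genes have an adjusted p under 0.05 in the authors' deposited table (largest 0.0499), and the adjusted p-values imply 17347 genes behind them.

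Genotypes were compared on the deposited signal with limma 3.58.1 (R 4.3.3) on log2(value + 1) with a variance trend, genotype as the term and 2 residual degrees of freedom, for genes with a value of at least 1 in 2 libraries. P-values were adjusted over 17347 genes by the Benjamini-Hochberg method. Variances were pooled over genes selected for a difference, so p-values may be too low, and they measure only the spread between these libraries, which may be technical. A fold is the ratio of mean normalised reads. Alternatives used edgeR 4.0.16 and DESeq2 1.42.0 on the recovered reads. The code was tested on simulated data.

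The genes and lists were chosen with earlier results of these data known. Named genes were the 3 members, the 5 most like each, 2 on either side in rank, listed genes within 500 kb, all listed Btbd, thrombospondin type 1 and microfibril genes, the 3 lowest and 3 highest Tmem genes, and the 4 most abundant of each other list. Some genes that this rule names are not reported here. GC content was that of the longest GENCODE M21 transcript, which 6934 genes (99.9%) had. Promoters came from RefSeq (GRCm38.p6), which held all 3 genes.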

Additional observations from a re-analysis of the deposited data

How the results depend on the processing

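The log2 fold changes of the 3 genes kept their direction under all 14 alternatives, running from -4.53 to -3.41 for Tmem125, -3.35 to -2.68 for Btbd16 and -3.37 to -2.89 for Thsd4. The value of Thsd4 moved by more than its spread to -3.08 with relative log expression factors in edgeR, to -3.08 with DESeq2 and to -2.89 with the gene length trend removed, and relative log expression factors raised the median of all genes by 0.191 on the log2 scale. Ranks among the falls ranged from 3 to 24 for Tmem125, 7 to 52 for Thsd4 and 11 to 57 for Btbd16. Of the 5 genes most like each member, 3 were shared with a pseudocount of 5, and, among genes with a control mean of at least 100, 3 for Tmem125 and 4 for the others. Within 1000 kb 14 listed genes were lower and 12 higher. Of 81 other named genes 60 kept direction and call in every alternative. With the trends with GC content and gene length removed, values turned for Arih1 (0.19), Hexa (-0.030), Btbd10 (0.56), Btbd2 (-0.20), Aqp4 (0.35), Dcx (0.34) and C1qc (-0.0067), and Aqp4 also turned with relative log expression factors and with DESeq2 (0.032 in each). The same numbers in both genotypes were not treated as pairs. The correlation of same-numbered deviations was 0.013 over genes, which cannot show whether libraries were prepared in pairs. A replicate block gave 3242 genes higher and 3696 lower. Depth limits Tmem125 and Btbd16, with 10 to 18 reads per cKO library.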

Other observations

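Of the 47 genes at least 8-fold lower in the cKO cells, 13 had a control mean of at least 100 normalised reads, a limit chosen after the values were seen. Besides Tmem125, Btbd16 and Thsd4 these included Gm14434, Tppp, Mobp, Sytl5, Ptprb, 9630013A20Rik, Kcnj12, Bcas1os2 and Gjb1. Gjb1 encodes a connexin of the oligodendrocyte and fell 8.22-fold, and Sytl5 fell 14.8-fold, from 128.6 to 8.68. Gm14434, a predicted coding gene, had 329 and 309.5 normalised reads in the controls and a mean of 2.37 in the cKO cells.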
